A study of Drosophila melanogaster with 3 samples.

Results

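Binding of tagged Broad was described at 9 genes of the Drosophila Egfr pathway, spi, vn, rho, Egfr, Ras85D, Raf, aos, pnt and aop. They were chosen on measured values of these same lists, as a named set of pathway genes with regions by place and rank, out of 13968 nuclear protein-coding genes. A region belonged to a gene when its summit lay in the annotated gene body or within 5 kb of either end. By that rule the 9 genes held 22 of the 2533 regions of the optimal list, and 160 of the 27389 regions listed for the pooled replicates. The pooled list is labelled as holding peaks and background. In these windows its −log10 q-values fell as low as 0.02, so a count of pooled regions is not a count of binding sites. Rank and place are what chose the genes, so all values below are descriptions and none was tested.

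The data were peak lists from chromatin immunoprecipitation and sequencing of Broad carrying a C-terminal eGFP tag (the form br-RE), recovered with an antibody against GFP. Chromatin came from entire Drosophila melanogaster larvae in the third instar, at the wandering stage, with both sexes together, in 1 group of 3 biological replicates numbered 2, 3 and 4. Every library carried the same br-eGFP transgene, so there was no genotype, treatment or time to compare with. The age of the larvae is unknown, which zinc fingers the tagged form carries was not established, and the control library was not analysed here. In whole larvae, strong binding in a small share of cells and weak binding in many cells cannot be told apart.

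Spitz, the product of spi, and Vein, the product of vn, are ligands of the receptor Egfr, and the intramembrane protease Rhomboid (rho) releases active Spitz from the cells that make it. The receptor acts through the GTPase Ras85D and the kinase Raf to activate the MAP kinase Rolled, which turns on the ETS activator Pointed (pnt) and turns off the ETS repressor Yan (aop), while Argos (aos) is a secreted inhibitor that sequesters Spitz. The pathway patterns imaginal discs such as the eye and the wing, and Broad is a family of zinc finger factors induced early by ecdysone, the hormone that drives metamorphosis.

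Sequences around 6 summits are shown as examples, the strongest of spi, Ras85D, Raf, aos and pnt and the region of rank 300 at aop. Each window reaches 100 bp to either side of a summit of the optimal list, 201 bp in all. It is printed from the plus strand of dm6, from the RefSeq copy of the assembly. Capitals mark the searched words, on either strand: GAGAG (bound by GAGA factor), CTATTT for the Broad zinc finger form Z2, AAACTA for form Z3 and GTAAACA for form Z4, TATCGATA (DRE), GGTCACAC (M1BP), CGGAAG (an ETS core) and TGANTCA (AP-1). Neighbouring GAGAG words can overlap one another.
spi, rank 455, chr2L:19572832-19573032: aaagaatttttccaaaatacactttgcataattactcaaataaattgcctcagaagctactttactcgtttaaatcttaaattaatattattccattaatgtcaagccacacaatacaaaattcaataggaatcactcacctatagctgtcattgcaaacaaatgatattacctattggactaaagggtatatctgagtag
Ras85D, rank 864, chr3R:9513105-9513305: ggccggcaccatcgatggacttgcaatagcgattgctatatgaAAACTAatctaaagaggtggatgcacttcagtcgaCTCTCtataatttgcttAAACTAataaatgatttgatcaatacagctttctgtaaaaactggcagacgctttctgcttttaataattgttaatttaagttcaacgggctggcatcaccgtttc
Raf, rank 55, chrX:2300633-2300833: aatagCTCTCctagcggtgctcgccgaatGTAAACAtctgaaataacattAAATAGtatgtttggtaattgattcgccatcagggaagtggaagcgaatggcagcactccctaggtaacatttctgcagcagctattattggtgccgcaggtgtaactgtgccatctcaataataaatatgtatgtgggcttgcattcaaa
aos, rank 1529, chr3L:16483932-16484132: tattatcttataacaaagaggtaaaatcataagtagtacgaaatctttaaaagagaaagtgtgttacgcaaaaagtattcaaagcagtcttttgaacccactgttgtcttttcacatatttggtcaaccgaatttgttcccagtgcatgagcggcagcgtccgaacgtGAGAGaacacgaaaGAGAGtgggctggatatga
pnt, rank 1647, chr3R:23337252-23337452: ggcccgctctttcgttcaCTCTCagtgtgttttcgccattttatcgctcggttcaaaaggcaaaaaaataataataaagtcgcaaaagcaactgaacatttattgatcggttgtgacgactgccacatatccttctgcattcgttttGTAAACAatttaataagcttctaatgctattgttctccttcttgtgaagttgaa
aop, rank 300, chr2L:2163579-2163779: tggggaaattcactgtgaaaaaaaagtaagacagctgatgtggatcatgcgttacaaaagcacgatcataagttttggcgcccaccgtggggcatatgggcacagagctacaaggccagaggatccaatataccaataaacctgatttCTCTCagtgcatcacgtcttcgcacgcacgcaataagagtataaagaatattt

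The windows differ in which words they hold. The Raf window of rank 55 has GTAAACA from 71 to 65 bp before the summit on the plus strand, and the complement of CTATTT from 50 to 45 bp before it. The pnt window has GTAAACA from 47 to 53 bp after its summit. The Ras85D window has AAACTA at 2 places, the later of which ends on the summit itself. GAGAG also occurs in the printed Raf, pnt and Ras85D windows, on the minus strand and before the summit in each. Of the aop windows, that of rank 300 has GAGAG alone, and that of rank 2000, which is not printed, has CTATTT and GTAAACA. The aos window has GAGAG at 2 places, 68 to 72 and 82 to 86 bp past the summit. The spi window of rank 455 holds none of the 8 words, and its 29.4% of G and C is the lowest of the 22 windows.

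Across all 22 windows, GAGAG occurred in 9, against 26.5% of the 2510 nuclear windows of the optimal list. GTAAACA occurred in 3, at Raf, pnt and the aop region of rank 2000, against 6.37%. CTATTT occurred in 3 against 20.4%, and AAACTA in 3 against 20.8%. TATCGATA (3.31% of all windows), GGTCACAC (1.51%), CGGAAG (2.71%) and TGANTCA (4.62%) occurred in none. The median share of G and C was 38.8% in the 22 windows, with a highest value of 46.8%, and 35.8% over all nuclear windows. A match is a run of letters, and a window without one says nothing of the factor.

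Most of the 9 genes carried at least 1 region of the optimal list, and Raf held the most. The counts were 9 at Raf, 4 at spi, 3 at Egfr, 3 at aop and 1 each at Ras85D, aos and pnt, with 0 at vn and rho. Per 10 kb of window, spi was denser than Raf, with 2.06 against 1.54 optimal summits, followed by aop (0.93), Ras85D (0.80), Egfr (0.631), aos (0.43) and pnt (0.152). So 7 of 9 genes had an optimal summit, where 31.8% of all protein-coding genes had one. Long genes have more room for a summit. Of the 5 members with a body of 20 kb or more 4 had one (44.9% of all genes that long), of the 3 from 5 to under 20 kb 2 had one (39.6%), and Ras85D, with a body under 5 kb, had one (28.7%). An optimal summit within 1000 bp of a gene's own transcription start site (TSS) was present at 5 of 9 genes, spi, Egfr, Ras85D, Raf and aos, against 13.5% of all protein-coding genes. Since the genes were chosen with these lists known, nothing is read from the difference between these shares.

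**Figure D1:**
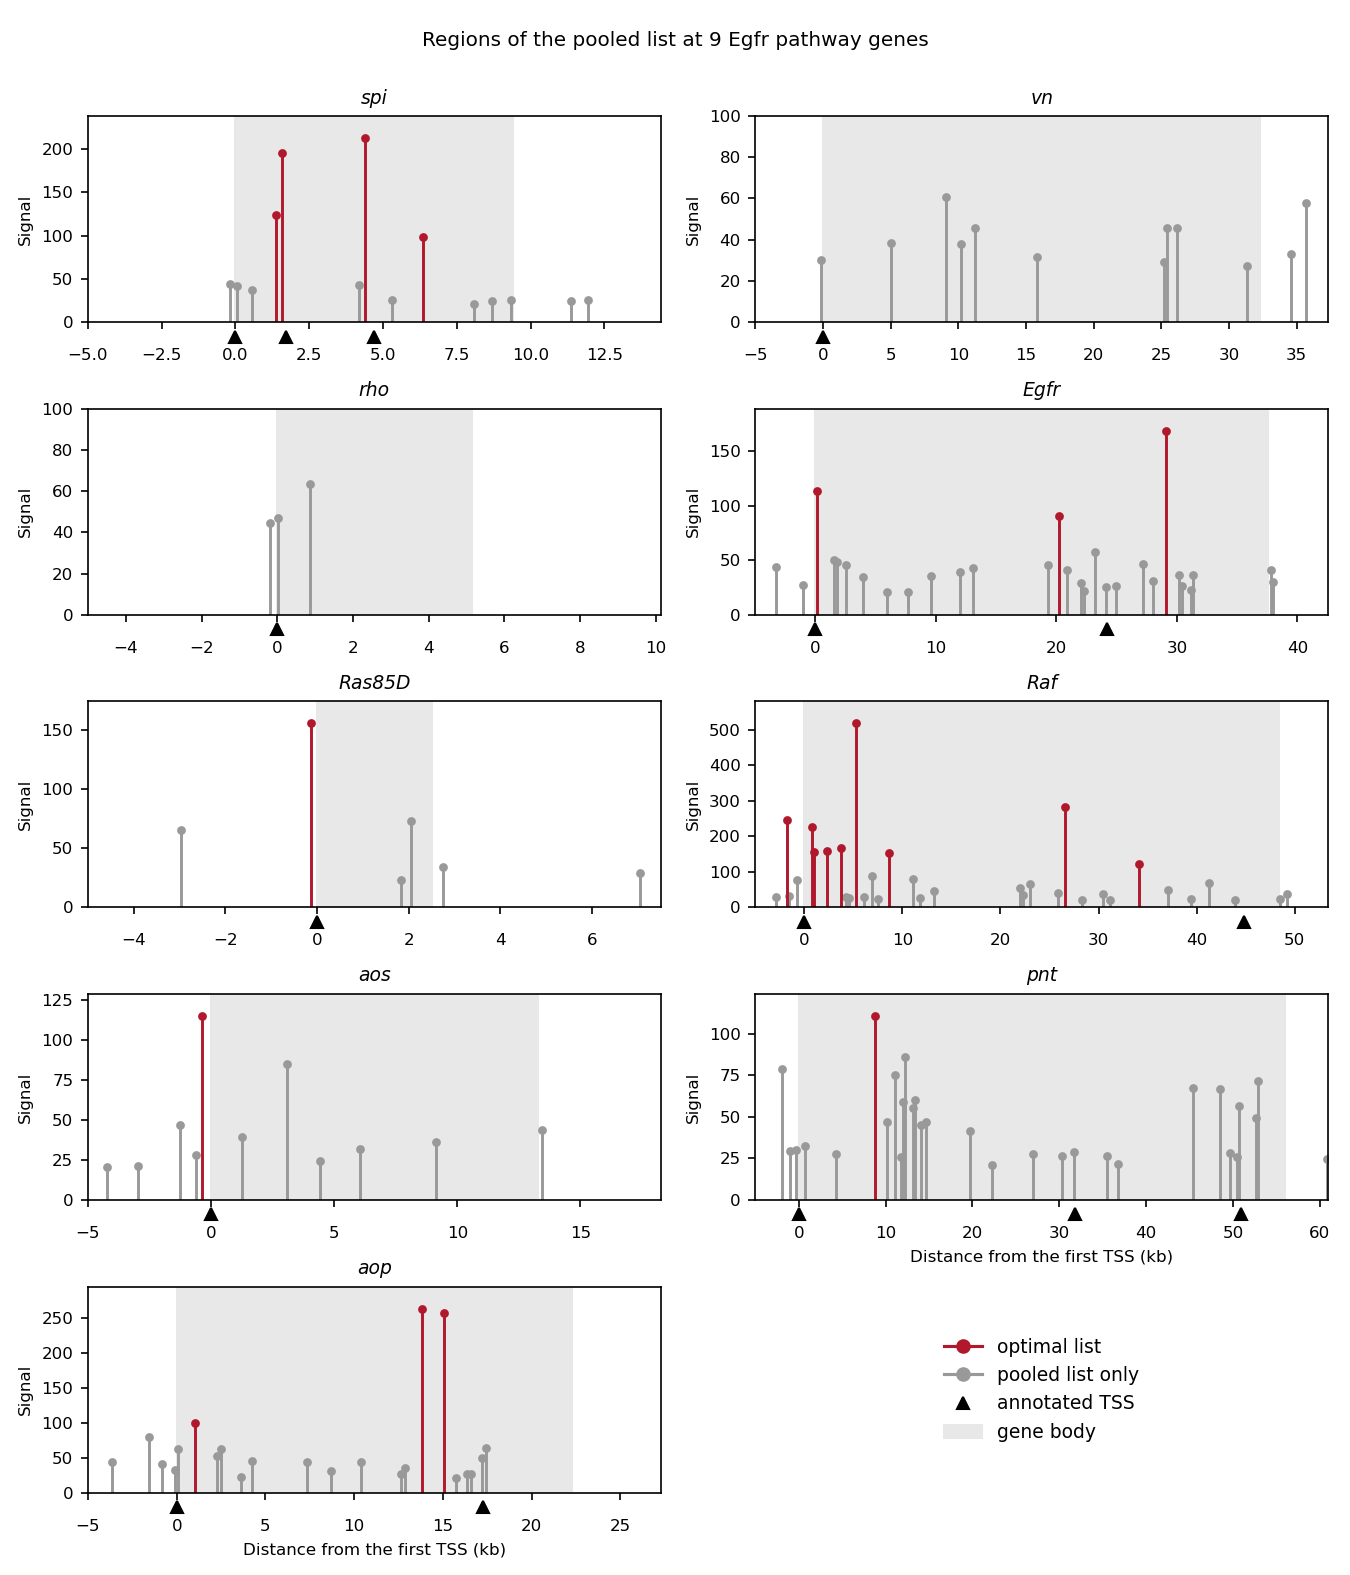
Regions of the pooled list at each of the 9 genes. The horizontal axis is the distance of the summit from the first TSS in kb, in the direction of transcription, and the vertical axis is the authors' signal, on a scale of its own for each gene. Red marks regions of the optimal list, grey those of the pooled list only, triangles the annotated TSSs and shading the gene body. At Raf 6 red summits lie within the first 9 kb of the body, and vn and rho have none.

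The signal is the authors' value for each region, used here only to rank and describe regions within 1 list. Over the 22 regions it ran from 90.3 to 518 with a median of 158, where the nuclear optimal regions had a median of 127 and reached 1298. The 22 included 8 of the strongest 25% of the list (rank 633 or better). Their −log10 q-values ran from 2.73 to 2.83, and 21 of 22 stood at the list's highest value, so the q-value does not order them. The optimal regions are the 2533 strongest pooled regions, and the members just inside its foot were a spi region of rank 2051 (signal 98.8) and an Egfr region of rank 2434 (90.3). Just outside stood regions at Raf (rank 2593, signal 87.4), pnt (2672, 85.8), aos (2715, 85.2) and aop (3109, 79.2).

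The replicates differed in how many of their own strongest regions lay at these genes. Among the 2533 strongest regions of a replicate (its top regions), 25 lay in the 9 windows in replicate 2, 18 in replicate 3 and 23 in replicate 4, a mean of 22.0 ± 3.61 (SD, n = 3). Without Raf the counts were 15, 12 and 13. Over the full lists of 30000 regions each, the windows held 177, 150 and 108, or 0.59%, 0.50% and 0.36% of each list, so replicate 4 listed fewest here. The windows cover 316.8 kb and carried 0.694 optimal summits per 10 kb, or 0.503 without Raf, against 0.21 over the joined windows of all protein-coding genes. For the pooled list the densities were 5.05 and 2.24 per 10 kb.

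Support for single regions was uneven. A region counted as found in a replicate when a summit of that replicate lay within 200 bp, so a single replicate region could match neighbouring optimal summits. The spi regions of ranks 534 and 1344 shared their counterparts in replicates 3 and 4, and both are counted as found in all 3. Of the 22 optimal summits 11 were top regions in each of the 3 replicates, 6 in only 2 of them, 4 in only 1 and 1 in none, where 38.5% of all nuclear optimal regions were found in all 3. Replicate 2 held 19 of the 22, replicate 3 held 13 and replicate 4 held 17, against 70.1%, 67.6% and 68.6% of all nuclear optimal regions. When all 30000 regions counted, 21 were found in all 3 replicates, and the exception was the region at Ras85D. The share of all nuclear optimal regions found so is not given here, so nothing is read from this count. Genes with a top region in each replicate were spi, Egfr, Raf, pnt and aop, 5 of 9, where 16.7% of all protein-coding genes had one in each.

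**Figure D2:**
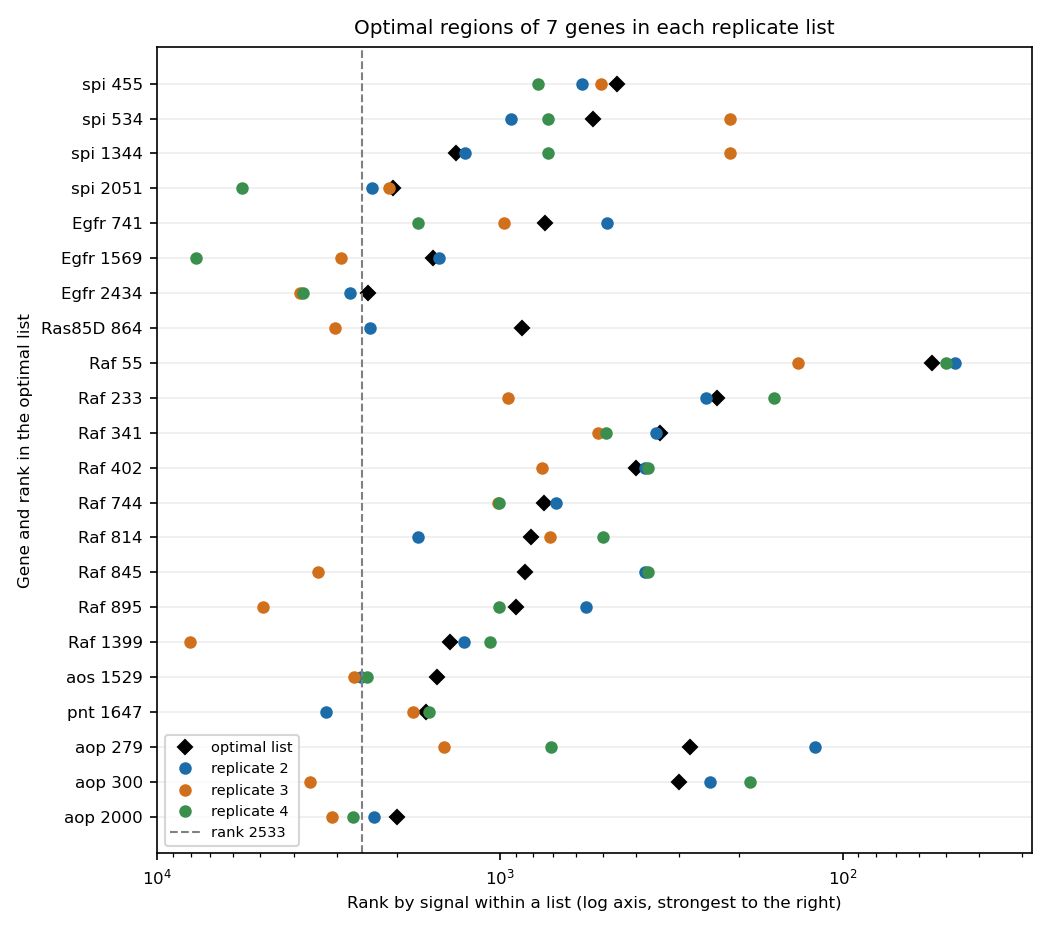
Rank of each of the 22 optimal regions within the optimal list and within each replicate list, on a log axis with the strongest to the right. Rows name the gene and the rank in the optimal list, and the dashed line is rank 2533. The Raf region of rank 55 is at 47, 135 and 50 in replicates 2, 3 and 4, while 5 Raf and aop regions have their weakest rank in replicate 3 beyond 2533 and the Ras85D region has no point for replicate 4.

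Regions were split between promoters and introns. A summit was classed as promoter within 1000 bp of the TSS of any annotated gene, and otherwise by the feature under it. Of the 22, 11 were promoter and 11 intronic, against 62.7% promoter and 26.6% intronic over all nuclear optimal regions. Of the 11 promoter summits, 7 were at a TSS of the member itself and 4 only at that of another gene, 3 of these at Raf and 1 at spi. By place in the member itself, 17 lay in introns, 2 in exons and 3 upstream. None lay outside the member on its downstream side.

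Among the ligands, spi carried 4 optimal regions and vn none. The gene spi (FBgn0005672, chr2L:19567900-19577315, minus strand) has 3 annotated TSSs. Its strongest region (rank 455, signal 213, chr2L:19572730-19573133) lay in an intron, 322 bp from the TSS of spi-RB and spi-RE. In replicates 2, 3 and 4 it ranked 575, 507 and 773 with signals of 88.9, 59.9 and 46.8, so all 3 placed it among their top regions.

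A pair of spi regions lay at the TSS of spi-RG, with summits 208 bp apart. The first (rank 534, signal 195, chr2L:19575547-19575950), 162 bp from that TSS, ranked 928, 213 and 725. The second (rank 1344, signal 124, chr2L:19575755-19576158), 370 bp from it, ranked 1269, 213 and 725. Replicates 3 and 4 therefore matched both with a single region, and replicate 2 listed them apart. The fourth (rank 2051, signal 98.8, chr2L:19570763-19571166) lay 1645 bp from a spi TSS and 701 bp from mir-2b-2, a microRNA gene inside spi. It ranked 2365, 2104 and 5678, below the top regions in replicate 4 alone. No optimal region was found at the first TSS, that of spi-RA and spi-RF.

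At vn (FBgn0003984, chr3L:5813338-5845664, minus strand) none of 12 pooled regions reached the optimal list. The strongest (rank 4914, signal 60.6, chr3L:5836369-5836772) was intronic, 9093 bp past the TSS, and ranked 6730, 22318 and 2731 in replicates 2, 3 and 4. Replicate 4 had 2 top regions in vn introns, at ranks 1736 and 2363, and replicates 2 and 3 had 0. The first of these ranked 6826 in replicate 3 and was not listed in replicate 2, and the second ranked 13273 in replicate 2 and was not listed in replicate 3. Top regions at vn were therefore listed by 1 replicate of 3.

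At rho (FBgn0004635, chr3L:1463811-1468944, plus strand) all 3 pooled regions lay in the promoter class and none reached the top of any list. The strongest (rank 4534, signal 63.5, chr3L:1464481-1464884), 872 bp past the TSS, ranked 5669, 9085 and 6581. The next, 21 bp from the TSS, had rank 7411 and was listed in replicates 2 and 4 at ranks 9034 and 8844. The gene lies inside the body of Ptp61F, on the opposite strand.

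The receptor gene Egfr (FBgn0003731, chr2R:21522420-21559977, plus strand) has TSSs for Egfr-RA and Egfr-RB, 24223 bp apart, and carried 3 optimal regions. The strongest (rank 741, signal 169, chr2R:21551307-21551710) was intronic, 4866 bp past the TSS of Egfr-RB. It ranked 487, 972 and 1739 in replicates 2, 3 and 4, with signals of 95.2, 46.5 and 28.7, and was a top region in each. The region at the TSS of Egfr-RA (rank 1569, signal 114, chr2R:21522304-21522707) had its summit 86 bp past that TSS, in the 5′ UTR. It ranked 1510, 2908 and 7693, so only replicate 2 held it among its top regions.

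The last Egfr region (rank 2434, signal 90.3, chr2R:21542458-21542861) lay in an intron, 3983 bp upstream of the TSS of Egfr-RB and 2087 bp from CG30283, a gene nested in Egfr. It ranked 2735, 3828 and 3746, and was the only one of the 22 that no replicate held among its top regions. In all Egfr held 29 pooled regions, 20 of them intronic, and 7 were listed in all 3 replicates.

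Ras85D (FBgn0003205, chr3R:9510561-9513067, minus strand), the Ras GTPase of the pathway, is a short gene that starts beside the divergent gene Rlb1. Its 1 optimal region (rank 864, signal 155, chr3R:9513003-9513406) lay between them, 138 bp from the TSS of Ras85D and 122 bp from that of Rlb1, so the lists do not assign it to either. It ranked 2398 in replicate 2 (signal 45.5) and 3025 in replicate 3 (signal 30.0). Replicate 4 listed no region in the whole window of Ras85D, while replicates 2 and 3 listed 8 and 10. A region near this summit was therefore listed by 2 of the 3 replicates.

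Raf (FBgn0003079, chrX:2295466-2343870, plus strand), the kinase that Ras activates, carried 9 optimal regions. As many were found at 9 of the 13968 protein-coding genes (0.0644%), Raf among them. All 9 have a body of 20 kb or more, and they are 0.882% of genes that long. At least 3 were found at 4 of the 9 pathway genes, against 2.98% of all genes, and at 3 of the 5 members of 20 kb or more, against 13.2% of genes that long. Among the replicates' top regions Raf held 10, 6 and 10 in replicates 2, 3 and 4, a mean of 8.67 ± 2.31 (SD, n = 3). The lowest of these counts is above the highest count of any other member, which was 5.

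The strongest region of the 9 genes (rank 55, signal 518, chrX:2300573-2300856) lay in a Raf intron, 5267 bp past the TSS of Raf-RE. It ranked 47, 135 and 50 in replicates 2, 3 and 4 with signals of 248, 104 and 170. In every replicate it was the strongest region of any of the 9 genes. Around it lay 4 other intronic summits and 1 in the 5′ UTR, so that 6 optimal summits stood in the first 9 kb of the gene body.

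The 5′ UTR region (rank 402, signal 226, chrX:2296090-2296493) had its summit 826 bp past the TSS and ranked 378, 756 and 369. Next to it, 1038 bp past the TSS, an intronic region (rank 845, signal 157) shared its counterparts in replicates 2 and 4 with the first and ranked 3407 in replicate 3. At 2281 bp a region of rank 814 (signal 160.0) ranked 1735, 714 and 499. At 3769 bp a region of rank 744 (signal 169) ranked 685, 1016 and 1004, close together in the 3 replicates. At 8663 bp a region of rank 895 (signal 152) ranked 560, 4923 and 1005, so replicate 3 was the low one.

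The other 3 Raf regions lay at TSSs of other genes. One (rank 341, signal 246, chrX:2293497-2293900) was 1767 bp upstream of Raf and 288 bp from the TSS of CG2865, which is transcribed away from Raf, and it ranked 350, 518 and 492. Another (rank 233, signal 283, chrX:2321975-2322175) lay inside Raf, 175 bp from the TSS of lncRNA:CR34052, and ranked 250, 949 and 159. The last (rank 1399, signal 121, chrX:2329352-2329755) lay 605 bp from lncRNA:CR33218 and ranked 1270, 8034 and 1066. Protein-coding genes nested in the Raf body are Ilp6, an insulin-like peptide gene, CG14050 and CG2854. At the TSS of Raf-RA, 44832 bp downstream of the first, no optimal region was found. Replicate 3 gave the lowest rank of the 3 replicates to 8 of the 9 Raf regions, though at rank 744 it nearly tied with replicate 4 (1016 against 1004). The share over all nuclear optimal regions is not given here, so this count is not read as a trait of Raf.

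**Figure D3:**
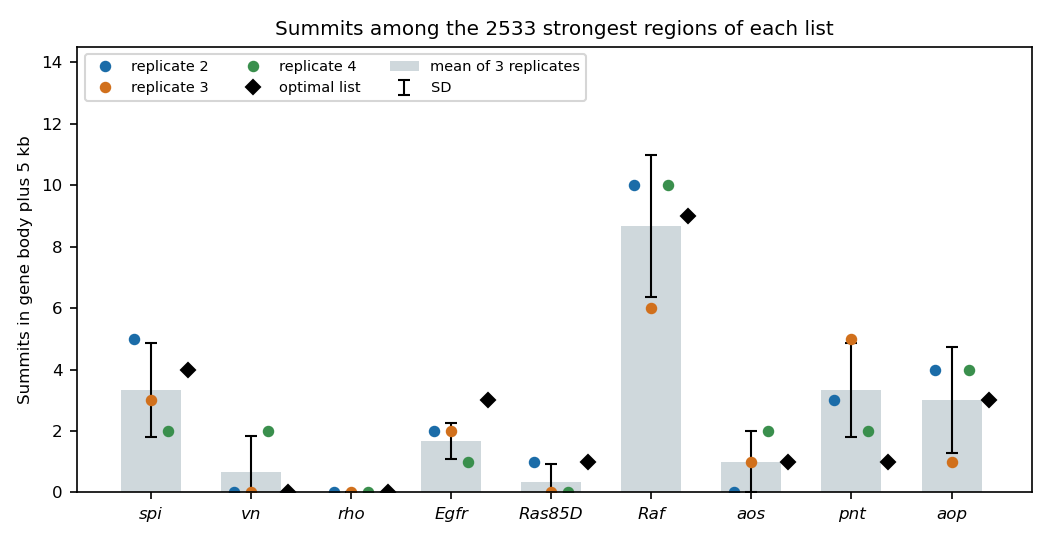
Number of summits in the gene body plus 5 kb among the 2533 strongest regions of each list, for each of the 9 genes. Coloured points are the replicates, bars their mean, error bars the SD (n = 3) and diamonds the optimal list. Raf has 10, 6 and 10 and rho has 0 in each replicate, while pnt has 3, 5 and 2 in the replicates and 1 in the optimal list.

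The secreted inhibitor gene aos (FBgn0004569, chr3L:16470386-16483650, minus strand) had 1 optimal region (rank 1529, signal 115, chr3L:16483830-16484233), 382 bp upstream of its TSS. It ranked 2551, 2665 and 2445 in replicates 2, 3 and 4, with signals of 44.1, 31.7 and 23.4. These ranks lie close together around the limit of 2533, and only replicate 4 was on its inner side. An intronic region 3066 bp past the TSS ranked 1521 in replicate 4 but 3568 and 9614 in replicates 2 and 3, and stood at 2715 in the pooled list. The whole gene lies inside the body of CG33158, on the opposite strand.

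Of the ETS genes, pnt (FBgn0003118, chr3R:23290231-23346167, minus strand), which encodes the activator, had 1 optimal region and aop had 3. The pnt region (rank 1647, signal 111, chr3R:23337150-23337553) was intronic, 8815 bp past the TSS of pnt-RB and 3549 bp from that of lncRNA:CR46090, and ranked 3213, 1792 and 1607 in replicates 2, 3 and 4. Other pnt regions were among the top regions of a single replicate. In replicate 2 an intronic region ranked 1091 and one 221 bp from the TSS of pnt-RC and pnt-RE ranked 1557, and neither had a summit of replicates 3 or 4 within the matching distance. A replicate 3 region of rank 1503 overlapped the first of them, with its summit just beyond that distance. In replicate 3 a region 47 bp from the TSS of the neighbour PolE1 ranked 1078, and it stood at 11267 in replicate 2. An intronic region of rank 1280 in replicate 3 ranked 10081 and 4360 in replicates 2 and 4. The replicates held 3, 5 and 2 top regions at pnt, and the optimal region was among them in replicates 3 and 4.

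The gene aop (FBgn0000097, chr2L:2156484-2178754, minus strand), which encodes the repressor Yan, held 2 of the strongest regions of the set, both intronic and between its groups of TSSs. The first (rank 279, signal 264, chr2L:2164754-2165157) lay 3429 bp upstream of the TSS of aop-RA and aop-RD. It ranked 120, 1457 and 709 in replicates 2, 3 and 4, with signals of 169, 40.1 and 49.2, a top region in each. The second (rank 300, signal 257, chr2L:2163618-2163727), 2152 bp from the same TSS, ranked 243, 3574 and 186 with signals of 128, 28.1 and 101. Replicates 2 and 4 placed it among their strongest and replicate 3 did not reach the limit.

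The other aop region (rank 2000, signal 99.9, chr2L:2177542-2177945) lay 1010 bp past the first TSS, just beyond the promoter distance, and ranked 2326, 3084 and 2684. In replicate 2 a region 25 bp from the TSS of aop-RA and aop-RD ranked 1182, and it stood at 7412 in replicate 3 and 6679 in the pooled list. No optimal region was found there. Over all 9 genes, 21 of the 66 top regions of the replicates had no optimal counterpart, 7 in replicate 2, 6 in replicate 3 and 8 in replicate 4. The share over all top regions is not given here, so the count is not read as a trait of these genes.

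By the strongest region of each gene in the pooled list the order was Raf (55), aop (279), spi (455), Egfr (741), Ras85D (864), aos (1529), pnt (1647), rho (4534) and vn (4914). Raf ranked ahead of the other 8 genes in each replicate. Neighbours in this order mostly overlapped between replicates. The best ranks of aop were 120, 1457 and 186 and those of spi 575, 213 and 725, and Egfr at 487, 972 and 1739 overlapped spi in turn. The best ranks of pnt, 1091, 1078 and 1607, overlapped those of aos, 2551, 2191 and 1521, and were all ahead of those of rho, 5669, 9085 and 6581. Ras85D had best ranks of 2398 and 3025 in replicates 2 and 3, and no region in replicate 4. So Ras85D, ahead of pnt and aos in the pooled list, was behind pnt in every replicate. It was ahead of aos in replicate 2 alone. The best ranks of vn were 4364, 6826 and 1736, a range that overlapped that of rho. Within each replicate vn was nevertheless ahead of rho, the reverse of their order in the pooled list. The vn rank in replicate 2 was that of a region downstream of vn, with S6k as the gene of the nearest TSS.

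Likeness to Raf was taken as the mean absolute difference of the log10 best rank over the pooled list and the 3 replicate lists. The genes closest by this measure were Mi-2, which encodes a chromatin remodeller, and Su(Tpl), which shares the region with Mi-2 (0.082, with a best pooled rank of 65 and 72, 153 and 52 in the replicates), then HmgD, which encodes a high mobility group protein (0.09, with ranks of 54, and 53, 69 and 51). This is a description of ranks over 4 lists, and the pooled list is made from the other 3.

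Among 31 other genes of the pathway, 17 had an optimal summit in the same window, beside the 31.8% of all protein-coding genes, and 7 had one at their own promoter, beside 13.5%. Their windows held 30 optimal summits, 9 in own promoters, 7 in promoters of other genes only, 11 intronic and 3 intergenic. Over all nuclear optimal regions 62.7% were promoter and 26.6% intronic. By role, all 5 nuclear effectors and targets had an optimal summit. So did 4 of 8 feedback inhibitors, 4 of 8 ligands and ligand processing genes and 4 of 10 genes of signal transduction. By length, 5 of 8 genes of 20 kb or more had one (44.9% of all genes that long). Of those from 5 to under 20 kb 10 of 18 had one (39.6%), and of shorter ones 2 of 5 (28.7%). Lists of pathway genes were drawn up with earlier results of these data known, so these counts support nothing beyond themselves.

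In signal transduction the strongest regions lay at Shc and cnk. The region of rank 87 at Shc, an adaptor gene, was 128 bp from its TSS and 124 bp from that of Atat, and it ranked 370, 132 and 27 in replicates 2, 3 and 4. The region of rank 96 at cnk, which encodes a scaffold for Raf, was 1092 bp from its TSS but 278 bp from that of l(2)k01209, and ranked 133, 115 and 109. Both were top regions in each replicate, and both have another gene as the nearest. In the core of the cascade, no optimal summit lay at rl, the MAP kinase gene (best pooled rank 15914), at Dsor1, its activating kinase (3046), or at ksr. Dsor1 had 2 top regions in replicate 4, the better at rank 1071, and 0 in replicates 2 and 3. In the window of rl, replicate 2 listed 0 regions, and replicates 3 and 4 listed 14 and 20. At Sos, the Ras exchange factor, the pooled list had no region, and the best ranks in replicates 2, 3 and 4 were 14100, 16618 and 8932.

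Among feedback genes, Gap1 (annotated as RasGAP1), which encodes a Ras GTPase-activating protein, had a region of rank 366 at 661 bp from its TSS, with ranks of 327, 1119 and 359. The gene sty, which encodes Sprouty, had 4 optimal regions of ranks 808, 850, 1021 and 1327. Those of ranks 808 and 1021 were intergenic, beyond the downstream end of sty. The one at its promoter, rank 850 at 928 bp, ranked 652, 1181 and 1361. Nf1, another Ras GTPase-activating gene, had a region of rank 782 in its window, which lay 406 bp from the TSS of CG43116 beyond the end of Nf1.

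Nuclear genes of the pathway all had optimal regions. The gene gro, which encodes the corepressor Groucho, had a region of rank 189 at 115 bp from a TSS, with ranks of 376, 192 and 140. The gene edl, whose product binds ETS factors, had an intronic region of rank 304, with ranks of 219, 404 and 727. The gene cic, which encodes the repressor Capicua, had a region of rank 461 at 536 bp from its TSS, with ranks of 656, 1451 and 331. Of the ligand genes, Krn had a promoter region of rank 1024 (2238, 800 and 1007) and a stronger one of rank 985 farther upstream, and S, whose product traffics Spitz, had an intronic region of rank 1186.

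**Figure D4:**
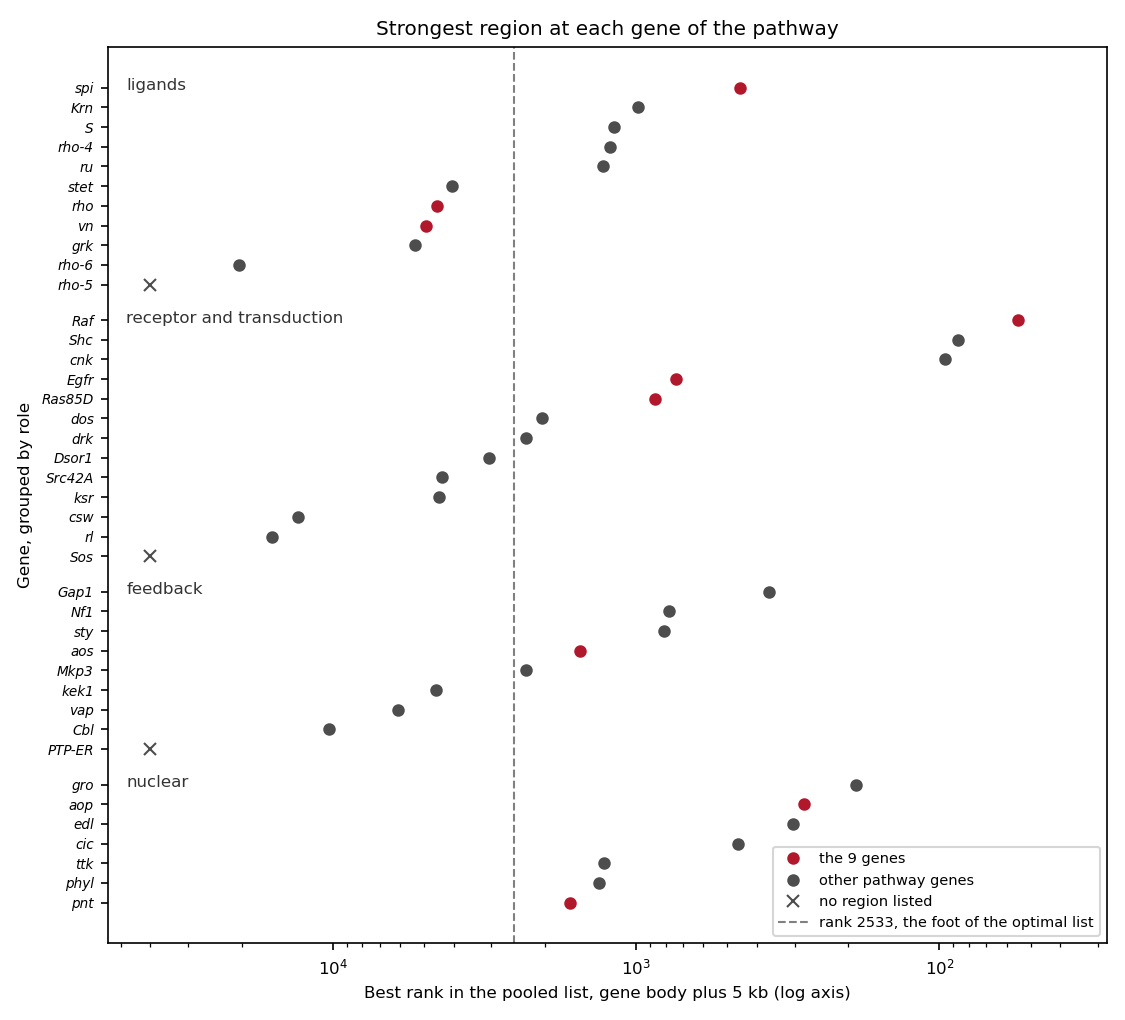
Best rank in the pooled list of each of 40 pathway genes, on a log axis with the strongest to the right, grouped by role. Red points are the 9 genes, grey points the other 31, crosses genes with no pooled region in the window, and the dashed line is rank 2533. Raf, Shc and cnk lead at ranks 55, 87 and 96, and all nuclear genes lie to the right of the line.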

How the data were processed

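The authors deposited ranked region lists on dm6 for 3 biological replicates, for the replicates pooled, and an optimal list. Each gives a signal and a −log10 q-value per region. The pooled list is labelled as peaks and background, and the optimal list as thresholded. Per the labels, chromatin was sonicated to between 200 and 800 bp. The aligner, like the peak caller and the scaling of signal, is not given in the sources used here. Read depth is unknown, and the dm3 lists were not used here. Signal served to rank and describe regions within 1 list, and the deposited −log10 q-value only to describe them. Summits were placed on genes and TSSs of Ensembl release 115 on BDGP 6.54, with transposable elements and pseudogenes left out. Of 40 pathway symbols 39 matched by symbol and 1 by synonym. Coordinates are 1-based. Promoters reached 1000 bp, windows 5 kb, and regions of separate lists were matched within 200 bp.

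The members, lists, words and alternatives were chosen with earlier results of these data known. The text names the 9 genes, the protein-coding genes with the TSS nearest to their optimal summits, the 10 other pathway genes of best optimal rank and the 3 genes most like Raf. Noncoding genes at summits, features of single replicates, and rl, Dsor1, ksr and Sos, were added after their values were seen. No test was run, because there is 1 group. The labels call the replicates biological, and their SD is the error given. Alternatives were other window, promoter and matching distances, a stricter list, other numbers of top regions and leaving out each replicate. Python 3.11.15, pandas 2.3.3, numpy 2.4.6 and matplotlib 3.10.9 were used, and the functions were tested on simulated data.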

Additional observations from a re-analysis of the deposited data

How the results depend on the processing

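The 22 optimal summits became 19 in the gene bodies alone, 21 with 1 kb and 24 with 10 kb, and 14 in the upper 50% of the optimal list. That stricter list left an own promoter summit at 3 genes in place of 5, while promoters of 500 and 2000 bp gave 4 and 6. Genes with an optimal summit stayed at 5 to 7 of 9 under these window and list settings. The share of all protein-coding genes with a summit, 31.8% at 5 kb, was 7.27% for bodies alone, 17.7% at 1 kb and 44.8% at 10 kb. The 11 summits found in all 3 replicates became 7 with 50% as many top regions and 21 with all listed regions, by construction of those limits, and 9 and 12 with matching at 100 and 500 bp. Leaving out 1 replicate gave 12 to 15, and by construction this could not lower the count. The mean of 22.0 top summits became 11.7 with 50% as many top regions, and 20.5 to 24.0 without 1 replicate. Ras85D and aos had 0 optimal summits in their bodies alone, against 1 each. In the upper 50% of the list Raf had 8, spi 2 in place of 4, aop 2 and Egfr 1 in place of 3, and aos and pnt 0, which left Raf alone with at least 3. At 10 kb aos and pnt had 2 each. The optimal list itself could not be recomputed without a replicate. No paired analysis was possible because there is 1 group. Read depth is unknown, so its effect on weak regions such as those at vn and rho could not be measured.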
